A study of Mus musculus with 18 samples.

Results

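The 10 genes described here, Lcn2, Serpina3n, Timp1, Cp, Mt1, Mt2, A2m, Cd44, Bcl3 and Steap4, belong to the acute-phase, protease inhibitor and metallothionein genes of reactive glia. They were chosen by name, with earlier results of these data known, by taking every array probe whose RefSeq accession carries one of the 10 symbols. This gave 13 probes out of 39429 on the array, 4 of them for Cd44 and 1 for each of the other genes. The brightest probe stood for each gene, and 9 of the 10 genes were tested among 25371 genes, 16790 of them with a symbol and the rest probes counted singly. Steap4 was not tested among them because its probe was well above background on 1 array, below the minimum of 3.

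The samples were whole mouse retinas, taken 3 days after crush of the optic nerve or from the uncrushed eye used as control. All mice were homozygous for a floxed allele of Map3k12, the gene of the kinase DLK, and received tamoxifen at 10 to 12 weeks of age. The groups with agreeing labels were 5 Cre-positive crushed, 5 Cre-positive uncrushed, 3 Cre-negative crushed and 4 Cre-negative uncrushed retinas, where Cre-positive mice also carried Cre-ERT under the CAG promoter, active in many tissues besides the retina. Per the labels, a small amount of DLK protein that varied between animals remained after tamoxifen, so Cre-positive retinas are not free of DLK, and the 1 remaining array, with labels that disagree on crush, entered no comparison. Each array held Cy5-labelled retinal RNA against a Cy3-labelled universal mouse reference pool, and every level below is log2 of Cy5 over Cy3 unless stated otherwise.

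Acute-phase proteins are made in quantity by the liver during inflammation, and astrocytes and Müller glia switch on several of the same genes after injury. Cytokines of the interleukin-6 family act through the shared receptor subunit gp130 to activate the transcription factor STAT3, and NF-kappa-B acts beside it on many of these genes. Metallothioneins are small cysteine-rich proteins that bind zinc and copper, and their genes are switched on by metal through the transcription factor MTF1 and by glucocorticoids and cytokines. Because whole retina was measured, more or fewer cells of a type and more or less RNA per cell cannot be told apart.

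Retinal Cy5 signal was well above background for 68% to 76.2% of probes per array. Its median lay between 240 and 297 intensity units, where background was 72.5 to 84, and 0 spots were saturated. All 8 Müller glia markers and all 6 rod markers examined were well above background on every one of the 17 arrays. Map3k12 measured 2.04 ± 0.20 in Cre-positive crushed, 1.998 ± 0.16 in Cre-positive uncrushed, 2.51 ± 0.17 in Cre-negative crushed and 2.43 ± 0.16 in Cre-negative uncrushed retinas (SD). Esr1 encodes the estrogen receptor, part of which Cre-ERT carries, and 1 of its 3 probes separated the genotypes, with values of 1.80 or higher in Cre-positive and of -0.50 or lower in Cre-negative retinas. Cre-positive crushed replicate 5 stood apart in lens markers, with Cryaa, a lens crystallin, at 3.18 against -0.011 to 0.44 in the other 4 arrays of its group. Cre-positive uncrushed replicate 4 stood apart in corneal markers, with the corneal keratin Krt12 at 5.55 against 0.060 to 3.50 in the other arrays of its group. The number of arrays limits the precision, and because nothing in the labels ties the samples to separate animals, p-values measure the spread between these samples.

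The first question was how the 10 genes responded to crush in each genotype. In Cre-positive retinas 5 of the 9 tested genes rose (Bcl3, Serpina3n, Mt2, Cd44 and Mt1) and 0 fell at a limma adjusted p under 0.05, where 0.769% of all genes tested were called and 0.682% were called higher and 0.0867% lower. That count was 3 without Cre-positive uncrushed replicate 1, 2 without Cre-positive uncrushed replicate 2, and 0 when only the 2 Cre-positive groups were fitted. In Cre-negative retinas 4 of the 9 rose (Bcl3, Mt2, Cd44 and Mt1) and 0 fell, where 2.15% of all genes were called and 1.34% were called higher and 0.808% lower. The median log2 change over the 9 genes was 0.42 in Cre-positive and 0.46 in Cre-negative retinas, while over all genes it was 0.00036 and 0.0015. Because the 10 genes were chosen with earlier results of these data known, the counts describe the set and do not test it. The 5 comparisons share arrays, so counts in them are not independent. On every slide crushed retinas lay at even and uncrushed retinas at odd array positions, so crush and array position cannot be told apart.

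**Figure D1:**
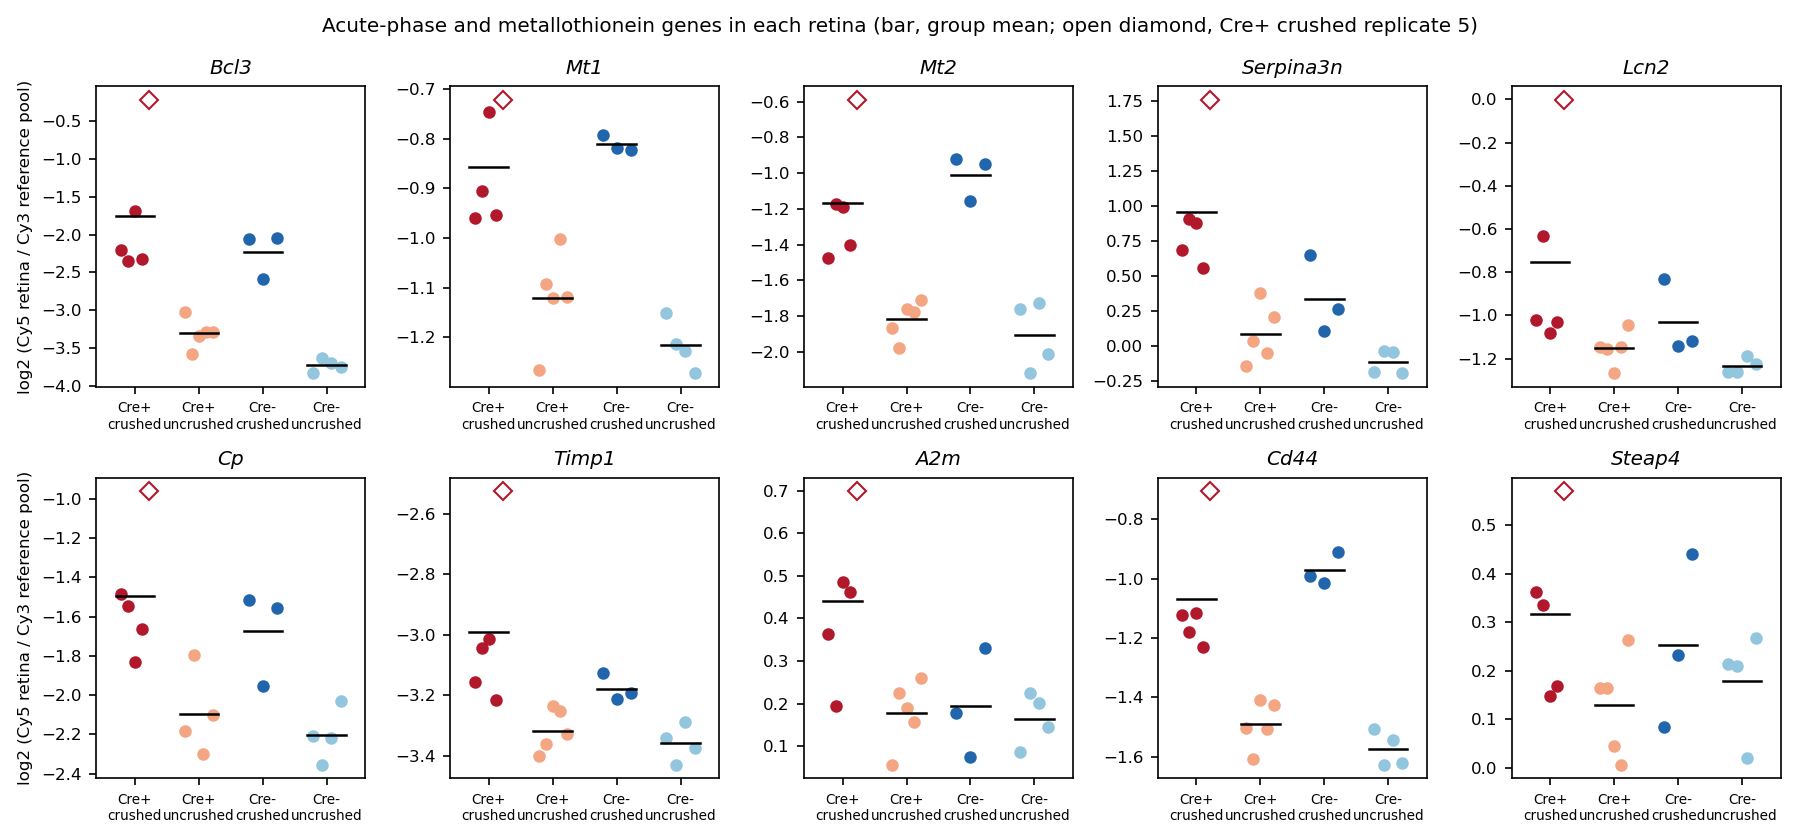
Log2 ratio of retinal Cy5 over reference Cy3 (vertical axis) for the 10 genes on each of the 17 arrays, by group (horizontal axis), with bars at group means and an open diamond for Cre-positive crushed replicate 5. In the 9 tested genes the open diamond is the highest point of its group, and for Bcl3, Mt1, Mt2, Serpina3n, Timp1 and Cd44 every crushed array lies above every uncrushed array of the same genotype.

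Without overlap between the groups, crushed arrays lay above uncrushed ones for 6 of the 9 genes in Cre-positive retinas, where 1.52% of all genes did so and 0.568% were separated in the other direction. They did for 8 of the 9 in Cre-negative retinas, where the shares were 8.81% and 6.61%. The Cre-negative groups are smaller, which makes such separation more frequent among all genes.

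The metallothionein genes are described first. Mt1 and Mt2 lie next to each other on chromosome 8, and their promoters are shown because metal response elements, the binding sites of MTF1, are the best known feature of these genes. Each window runs from 250 bases before to 50 bases after the annotated start, on the plus strand of GRCm38.p6 from RefSeq, at chr8:94178839-94179138 for Mt1 and chr8:94172368-94172667 for Mt2. Capitals mark matches to TGCACNC or TGCGCNC on either strand, so that GNGTGCA and GNGCGCA are the same motifs read on the other strand.
Mt1 promoter: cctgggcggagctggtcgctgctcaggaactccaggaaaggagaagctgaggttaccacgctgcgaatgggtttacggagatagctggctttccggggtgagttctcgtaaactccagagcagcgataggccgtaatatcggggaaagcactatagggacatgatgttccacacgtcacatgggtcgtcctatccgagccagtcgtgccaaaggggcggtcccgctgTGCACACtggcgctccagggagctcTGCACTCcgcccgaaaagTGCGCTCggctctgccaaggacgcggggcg
Mt2 promoter: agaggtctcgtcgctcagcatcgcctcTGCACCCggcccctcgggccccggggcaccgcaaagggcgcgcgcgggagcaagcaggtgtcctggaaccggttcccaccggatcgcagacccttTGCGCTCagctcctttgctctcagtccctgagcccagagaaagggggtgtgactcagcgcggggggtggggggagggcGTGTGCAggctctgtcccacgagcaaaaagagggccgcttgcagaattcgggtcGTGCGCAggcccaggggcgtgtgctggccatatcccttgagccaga
The Mt1 window held 3 matches and the Mt2 window 4, while 1.97% of the 32851 promoters of the same length in the table held at least 3 and 0.517% at least 4. A match is a description of the letters and not evidence that a factor binds.

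Mt2 measured -1.48, -1.18, -1.19, -1.40 and -0.59 in Cre-positive crushed retinas, against -1.87, -1.98, -1.76, -1.78 and -1.71 in Cre-positive uncrushed ones. It measured -0.92, -1.16 and -0.95 in Cre-negative crushed retinas, against -1.76, -2.12, -1.73 and -2.01 in Cre-negative uncrushed ones. All crushed arrays lay above all uncrushed arrays in each genotype. Mt2 rose 1.57-fold in Cre-positive retinas (log2 0.65, SE 0.13, limma adjusted p = 0.0204) and 1.86-fold in Cre-negative retinas (log2 0.89, SE 0.16, limma adjusted p = 0.00266). The Cre-positive call of Mt2 held in 30 of 36 alternative analyses, with limma adjusted p of 0.0101 to 0.175, and the Cre-negative one in 35 of 36. Among others, the Cre-positive call ended without Cre-positive uncrushed replicate 2 (0.61, limma adjusted p = 0.0678) and when only the 2 groups were fitted (limma adjusted p = 0.113).

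Mt1 was the brightest of the 10 genes in scanner signal and is expressed in many cell types. Its log2 ratio measured -0.96, -0.91, -0.75, -0.95 and -0.72 in Cre-positive crushed retinas, against -1.27, -1.09, -1.12, -1.003 and -1.12 in Cre-positive uncrushed ones. Its Cre-negative values were -0.79, -0.82 and -0.82 after crush, against -1.15, -1.21, -1.23 and -1.27 without it. The crushed and uncrushed arrays did not overlap, although the gap was small in Cre-positive retinas, where the lowest crushed value was -0.96 and the highest uncrushed value -1.003. Mt1 rose 1.2-fold in Cre-positive retinas (log2 0.26, SE 0.057, limma adjusted p = 0.0397) and 1.32-fold in Cre-negative retinas (log2 0.40, SE 0.069, limma adjusted p = 0.00237). The Cre-positive call held in 13 of 36 alternative analyses, with limma adjusted p of 0.0295 to 0.254, and the Cre-negative one in 35 of 36.

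Bcl3 encodes a nuclear member of the I-kappa-B family that works with NF-kappa-B subunits as a transcriptional co-regulator. By these ratios it had the largest fitted change of the 9 genes, although with the Cy5 processed signal alone Serpina3n exceeded it, at 2.11 against 1.79 in Cre-positive and 1.85 against 1.73 in Cre-negative retinas. It ranked 5 among all 25371 genes by log2 change in Cre-positive and 20 in Cre-negative retinas. Its promoter is printed because 1 match to the NF-kappa-B consensus, in capitals, lies just after the annotated start, a match that 8.46% of all promoters in the table hold at least once. The window is chr7:19822706-19823005 on the minus strand of GRCm38.p6, from RefSeq, written 5′ to 3′ along the gene.
Bcl3 promoter: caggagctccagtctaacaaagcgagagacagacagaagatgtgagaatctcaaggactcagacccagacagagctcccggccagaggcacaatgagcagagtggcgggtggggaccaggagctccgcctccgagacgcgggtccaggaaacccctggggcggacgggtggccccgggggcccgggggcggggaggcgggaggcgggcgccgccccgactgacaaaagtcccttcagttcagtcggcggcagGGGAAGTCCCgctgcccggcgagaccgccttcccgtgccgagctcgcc
Bcl3 measured -2.20, -2.35, -1.69, -2.32 and -0.21 in Cre-positive crushed retinas, against -3.02, -3.58, -3.34, -3.29 and -3.29 in Cre-positive uncrushed ones. It measured -2.05, -2.59 and -2.05 in Cre-negative crushed retinas, against -3.83, -3.63, -3.70 and -3.75 in Cre-negative uncrushed ones. Crushed and uncrushed arrays were separated in each genotype, and Cre-positive crushed replicate 5 lay far above the other 4 arrays of its group. The rise was 2.92-fold in Cre-positive retinas (log2 1.55, SE 0.29, limma adjusted p = 0.0142) and 2.83-fold in Cre-negative retinas (log2 1.5, SE 0.35, limma adjusted p = 0.0282). Without replicate 5 the Cre-positive change was 1.16 (limma adjusted p = 0.000263). Leaving out a single array of either Cre-negative group ended the Cre-negative call in 6 of 7 cases, with log2 changes of 1.41 to 1.53 and limma adjusted p of 0.0613 to 0.132.

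Among secreted acute-phase proteins, Serpina3n encodes a serine protease inhibitor often used as a marker of reactive astrocytes. It measured 0.69, 0.91, 0.88, 0.56 and 1.76 in Cre-positive crushed retinas, against -0.14, 0.037, 0.38, -0.050 and 0.21 in Cre-positive uncrushed ones. Its Cre-negative values were 0.65, 0.10 and 0.26 after crush, against -0.19, -0.039, -0.045 and -0.20 without it. Crushed arrays were above uncrushed arrays in each genotype. Serpina3n rose 1.83-fold in Cre-positive retinas (log2 0.87, SE 0.17, limma adjusted p = 0.0204). That call ended without Cre-positive uncrushed replicate 1, 2 or 4, at log2 changes of 0.82, 0.86 and 0.84 (limma adjusted p = 0.053, 0.0579 and 0.053), and when only the 2 groups were fitted (limma adjusted p = 0.122). In Cre-negative retinas the log2 change was 0.45 (SE 0.21, limma adjusted p = 0.347), which did not pass. The probe was dim, at 206 to 613 Cy5 intensity units in Cre-positive crushed retinas and 99 to 173 in Cre-negative retinas without crush, and 2 of the 4 Cre-negative uncrushed arrays were not well above background. With an offset of 16 added to the signals in place of 50, the change was 1.13 (limma adjusted p = 0.0203) in Cre-positive and 0.66 (limma adjusted p = 0.28) in Cre-negative retinas. The Cy5 processed signal alone, which also leaves out the Cy3 channel and the ratio normalization, gave 2.11 (limma adjusted p = 0.0454) in Cre-positive and 1.85 (limma adjusted p = 0.123) in Cre-negative retinas.

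Lcn2 encodes lipocalin 2, which binds bacterial iron carriers. It measured -1.02, -0.63, -1.08, -1.03 and -0.0011 in Cre-positive crushed retinas, against -1.15, -1.16, -1.27, -1.15 and -1.04 in Cre-positive uncrushed ones. Its Cre-negative values were -0.83, -1.14 and -1.12 after crush, against -1.26, -1.26, -1.19 and -1.22 without it. Replicates 2 and 5 of the Cre-positive crushed group were high, while the other 3, at -1.08 to -1.02, lay beside the highest uncrushed value of -1.04, and the groups overlapped in Cre-positive but not in Cre-negative retinas. The log2 change was 0.40 (SE 0.15, limma adjusted p = 0.376) in Cre-positive and 0.20 (SE 0.18, limma adjusted p = 0.696) in Cre-negative retinas, so Lcn2 passed in neither. Without Cre-positive crushed replicate 5 the Cre-positive change was 0.21 (limma adjusted p = 0.616).

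Cp encodes ceruloplasmin, the copper-carrying ferroxidase. It measured -1.48, -1.55, -1.83, -1.66 and -0.96 in Cre-positive crushed retinas, against -2.18, -1.80, -2.30 and -2.10 in the 4 Cre-positive uncrushed arrays with a value. Replicate 4 of the uncrushed group has no value, because the scanner software had flagged its spot, and the fit left it out. Its Cre-negative values were -1.51, -1.96 and -1.56 after crush, against -2.21, -2.35, -2.22 and -2.03 without it. Groups overlapped in Cre-positive retinas, through replicate 3 of the crushed and replicate 2 of the uncrushed group, and did not overlap in Cre-negative ones. The log2 change was 0.60 (SE 0.15, limma adjusted p = 0.0786) in Cre-positive and 0.53 (SE 0.17, limma adjusted p = 0.14) in Cre-negative retinas, so neither passed. It passed in 6 of 36 alternatives in Cre-positive and in 4 of 36 in Cre-negative retinas.

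The other metal-linked gene, Steap4, encodes a metalloreductase of iron and copper. Its values were 0.36, 0.34, 0.15, 0.17 and 0.57 in Cre-positive crushed retinas, against 0.17, 0.17, 0.045, 0.0069 and 0.26 in Cre-positive uncrushed ones. They were 0.085, 0.23 and 0.44 in Cre-negative crushed retinas, against 0.21, 0.21, 0.020 and 0.27 in Cre-negative uncrushed ones. Only Cre-positive crushed replicate 5 was well above background, and the groups overlapped in both genotypes. No lower bound on the Cre-positive change can be given, because most arrays of the crushed group were dim as well. With the filter on dim probes left out, the log2 change was 0.19 (SE 0.084, limma adjusted p = 0.568) in Cre-positive retinas. It was 0.074 (SE 0.10, limma adjusted p = 0.84) in Cre-negative retinas, so neither passed.

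Timp1 encodes a secreted inhibitor of matrix metalloproteinases. It measured -3.16, -3.04, -3.01, -3.22 and -2.53 in Cre-positive crushed retinas, against -3.40, -3.36, -3.24, -3.25 and -3.33 in Cre-positive uncrushed ones. Its Cre-negative values were -3.13, -3.21 and -3.19 after crush, against -3.34, -3.43, -3.29 and -3.37 without it. Crushed arrays were above uncrushed arrays in each genotype with small gaps: the lowest crushed array was at -3.22 against -3.24 for the highest uncrushed one in Cre-positive, and at -3.21 against -3.29 in Cre-negative retinas. The log2 change was 0.33 (SE 0.093, limma adjusted p = 0.153) in Cre-positive and 0.18 (SE 0.11, limma adjusted p = 0.537) in Cre-negative retinas, and it did not pass in any of 36 alternatives in either genotype.

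A2m encodes alpha-2-macroglobulin, which traps proteases of several classes. It measured 0.36, 0.19, 0.49, 0.46 and 0.70 in Cre-positive crushed retinas, against 0.057, 0.23, 0.19, 0.16 and 0.26 in Cre-positive uncrushed ones. Its Cre-negative values were 0.18, 0.075 and 0.33 after crush, against 0.086, 0.22, 0.20 and 0.14 without it. The probe was well above background on all 5 Cre-positive crushed arrays and on 4 of the other 12. Groups overlapped in both genotypes, and the log2 change was 0.26 (SE 0.076, limma adjusted p = 0.156) in Cre-positive and 0.030 (SE 0.092, limma adjusted p = 0.936) in Cre-negative retinas. In Cre-positive retinas the change of A2m was 0.41 with an offset of 16 (limma adjusted p = 0.226) and 0.999 with the Cy5 processed signal alone (limma adjusted p = 0.25).

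Cd44 encodes the hyaluronan receptor of the cell surface, which Müller glia carry. Its brightest probe measured -1.12, -1.18, -1.11, -1.23 and -0.71 in Cre-positive crushed retinas, against -1.51, -1.61, -1.41, -1.51 and -1.43 in Cre-positive uncrushed ones. It measured -0.99, -1.02 and -0.91 in Cre-negative crushed retinas, against -1.51, -1.63, -1.55 and -1.62 in Cre-negative uncrushed ones. Crushed and uncrushed arrays were apart in both genotypes. Cd44 rose 1.34-fold in Cre-positive retinas (log2 0.42, SE 0.078, limma adjusted p = 0.0131) and 1.52-fold in Cre-negative retinas (log2 0.60, SE 0.094, limma adjusted p = 0.000929). The next probe, much dimmer in Cy5, gave -0.017 in Cre-positive (limma adjusted p = 0.971 over probes) and 0.38 in Cre-negative retinas (limma adjusted p = 0.108 over probes). The remaining 2 Cd44 probes were at most on 1 array well above background, and their changes lay between -0.056 and -0.030. When the probes that passed the filter were averaged, the Cre-positive change was 0.20 (limma adjusted p = 0.364), so the Cd44 rise in that genotype rests on 1 probe.

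**Figure D2:**
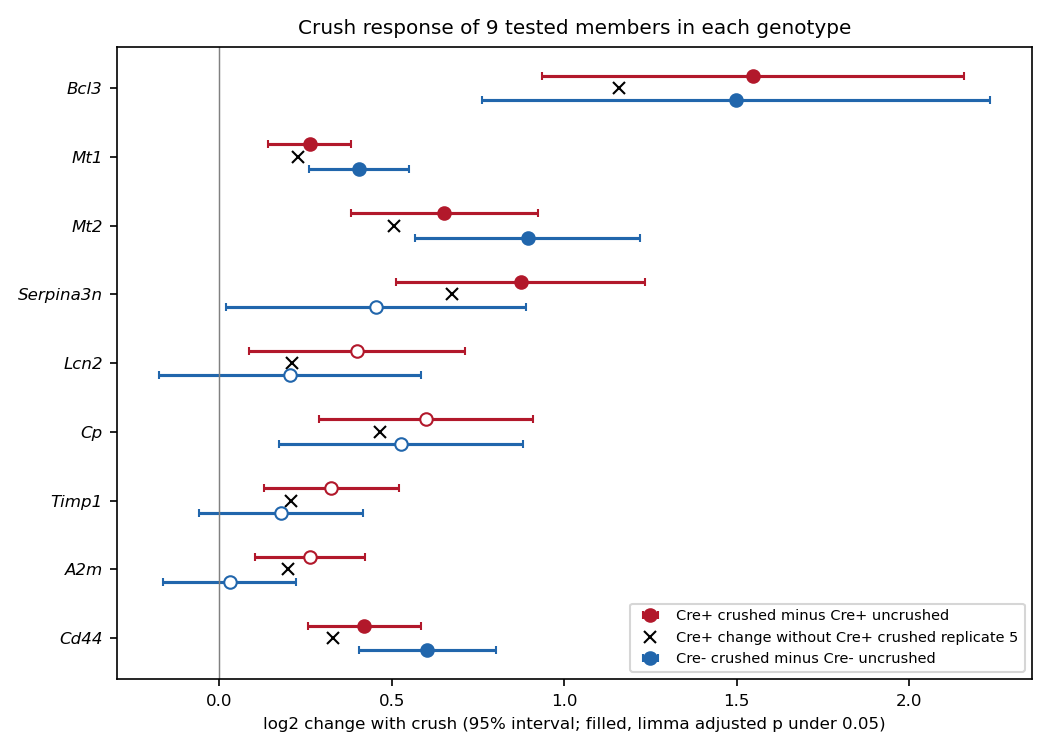
Log2 change with crush (horizontal axis) for the 9 tested genes (vertical axis) in Cre-positive (red, upper) and Cre-negative (blue, lower) retinas, with 95% intervals and filled symbols where the limma adjusted p was under 0.05. Black crosses give the Cre-positive change without Cre-positive crushed replicate 5, which is lower than with it for all 9 genes.

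Whether the response differs between genotypes was asked with the interaction, the crush change in Cre-positive minus that in Cre-negative retinas. In limma 0 of the 9 genes passed, where 0.418% of all genes were called, 0.134% as higher and 0.284% as lower. An unadjusted p under 0.05 was found for 0 of the 9 and for 8.41% of all genes. The estimate was 0.42 for Serpina3n, with a 95% interval of -0.15 to 0.99, and -0.24 for Mt2, with an interval of -0.67 to 0.18. For Mt1 the interval was -0.33 to 0.047, for Cd44 -0.44 to 0.074 and for Bcl3 -0.91 to 1.01. The intervals of Mt1 and Cd44 reach the size of these genes' Cre-positive responses, so they do not show that the genotypes responded alike. Without Cre-positive crushed replicate 5 the Bcl3 estimate was -0.34 and the Mt2 estimate -0.39 (limma adjusted p = 0.724 and 0.42).

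In crushed retinas Cre-positive and Cre-negative arrays overlapped for all 9 tested genes, and 0 of the 9 passed, where 1.15% of all genes were called, 0.607% as higher and 0.548% as lower. Of all genes, 5.85% were separated with Cre-positive arrays above and 4.4% with them below. Serpina3n and A2m had limma unadjusted p under 0.05 (0.0058 and 0.0116), as did 13.9% of all genes. The largest differences were 0.62 for Serpina3n (SE 0.20, limma adjusted p = 0.153) and 0.48 for Bcl3 (SE 0.34, limma adjusted p = 0.564). In uncrushed retinas 0 of the 9 passed in limma, where 0.0118% of all genes were called. There 0 had an unadjusted p under 0.05, where 5.59% of all genes did. All 9 fitted differences were above 0, from 0.014 for A2m to 0.43 for Bcl3, as were 53.6% of those of all genes. The 9 genes were measured on the same arrays, so their signs are not independent. With the disagreeing array added to the Cre-negative uncrushed group, the differences of Serpina3n, Timp1, Mt2, A2m, Cd44 and Bcl3 were below 0. Uncrushed Cre-positive arrays lay above uncrushed Cre-negative arrays without overlap for 1 of the 9, Bcl3, at -3.58 to -3.02 against -3.83 to -3.63 (1.28% of all genes did so and 0.678% the other way). That difference had a limma adjusted p of 0.898.

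Cre-positive crushed replicate 5 was the highest array of its group for all 9 tested genes. After each gene was centred on its mean over the 17 arrays, the 9 genes averaged 0.98 on that array and 0.14 to 0.31 on the other 4. Besides the lens genes, it was high in the neutrophil genes S100a8 (-0.13 against -2.68 to -1.64) and S100a9 (4.48 against 1.46 to 2.31) and in the microglia list, at a mean of 0.64 against 0.094 to 0.45. It was not high in the neutrophil gene Mpo, at -0.055 against -0.037 to 0.14 in the other 4. S100a9 was also at 4.78 on Cre-positive uncrushed replicate 4, on which the 9 genes averaged -0.21. The neutrophil list as a whole spanned -0.10 to 0.45 in Cre-positive crushed and -0.098 to 0.42 in Cre-positive uncrushed retinas. The highest values were those of crushed replicate 5 and uncrushed replicate 4. Of its 10 genes on the array, 3 (Ngp, Mmp8 and Cxcr2) were well above background on no array. What part these markers have in the values of replicate 5 was not tested. Without the array 4 of the 9 genes passed in Cre-positive retinas: Serpina3n (0.67, limma adjusted p = 0.00733), Mt2 (0.51, limma adjusted p = 0.0111), Cd44 (0.33, limma adjusted p = 0.00372) and Bcl3. Mt1 did not (0.23, limma adjusted p = 0.13). Of all genes, 0.508% were called in Cre-positive retinas in that fit, and 0.469% were called higher. In Cre-negative retinas, whose arrays were unchanged but which share the estimate of spread, 5 of the 9 then passed: Mt1, Mt2, Cd44, Bcl3 and Cp (0.53, limma adjusted p = 0.0347). There 2.68% of all genes were called, and 1.84% were called higher.

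**Figure D3:**
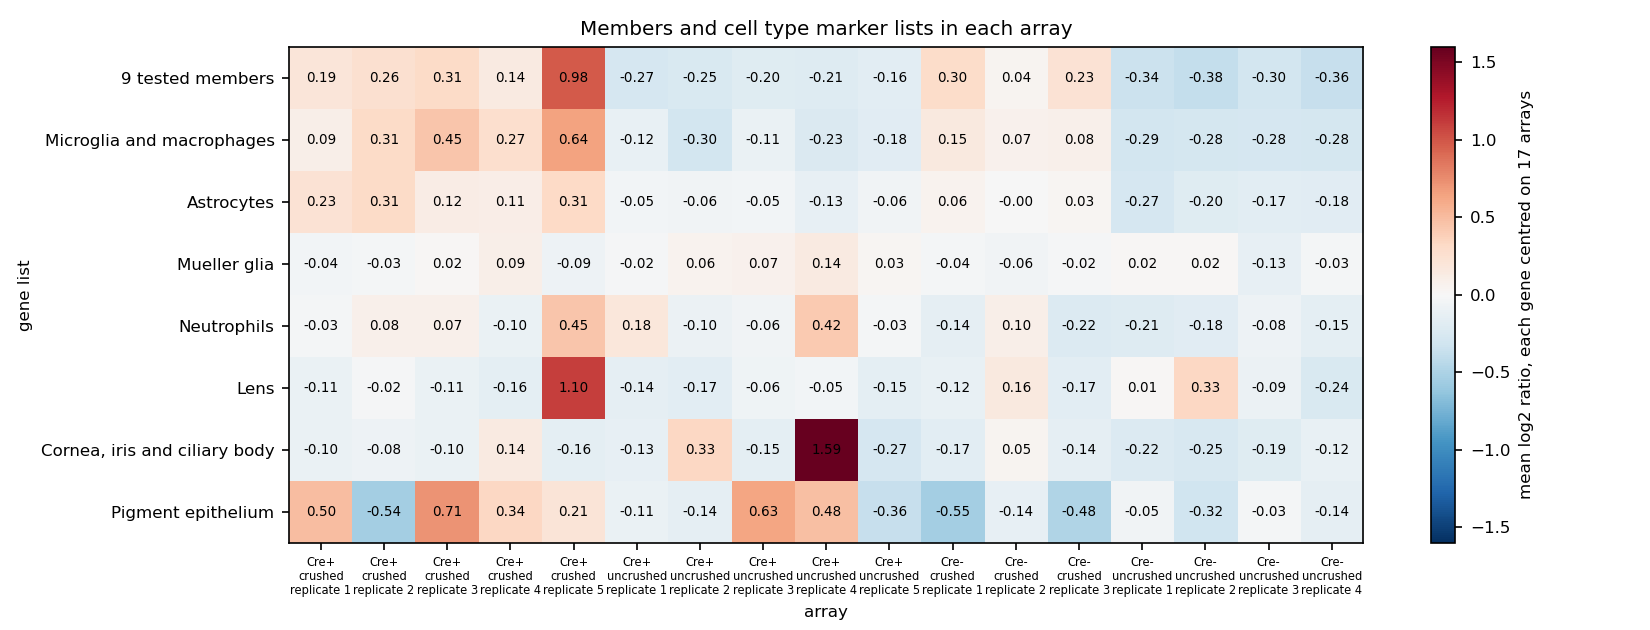
Mean log2 ratio of the 9 tested genes (top row) and of 7 cell type marker lists (other rows) on each of 17 arrays (columns), after centring each gene on its mean over arrays. The top row is highest, at 0.98, on Cre-positive crushed replicate 5, where the lens row is 1.10, and the cornea row reaches 1.59 on Cre-positive uncrushed replicate 4.

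Microglia and macrophage markers also moved with crush. Of 10 listed, 9 were on the array and all 9 were well above background on every array. Their mean centred level lay at 0.094 to 0.64 in Cre-positive retinas after crush, against -0.30 to -0.11 without it. In Cre-negative retinas it lay at 0.074 to 0.15 after crush, against -0.29 to -0.28 without it. In limma 7 of the 9 rose in Cre-positive retinas, where 0.682% of all genes were called higher. Without replicate 5 it was 5 of the 9, where 0.469% of all genes were called higher. In Cre-negative retinas 3 rose: Aif1 (0.84, limma adjusted p = 0.00132), C1qc (0.64, limma adjusted p = 0.00345) and Tmem119 (0.52, limma adjusted p = 0.00331). There 1.34% of all genes were called higher and 0.808% lower, while 0.0867% were called lower in Cre-positive retinas. Of the 8 Müller glia markers, 0 rose and 1 fell in Cre-positive retinas, the glutamine synthetase gene Glul (-0.50, limma adjusted p = 0.0475), while 0 passed there without replicate 5 and 0 passed in Cre-negative retinas. Their median change was -0.016 in Cre-positive and 0.017 in Cre-negative retinas. Of the 4 astrocyte markers, 2 rose in Cre-positive (1 without replicate 5) and 1 in Cre-negative retinas, with list medians of 0.19 and 0.18. Aldh1l1, a folate enzyme, changed by 0.40 in Cre-positive (limma adjusted p = 0.0497) and had 0.36 in Cre-negative retinas (limma adjusted p = 0.124). Pax2, a transcription factor, and S100b, a calcium-binding protein, had -0.020 and -0.061 in Cre-positive retinas and passed in neither genotype. Gfap, the intermediate filament of reactive glia, rose by 0.81 in Cre-positive (limma adjusted p = 0.00611) and by 0.77 in Cre-negative retinas (limma adjusted p = 0.0155). The share of these cell types in the change of the 10 genes was not tested.

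Differences within single slides can be taken where a slide held both groups of a genotype. In Cre-positive retinas this was so on 4 slides, and Lcn2, Serpina3n, Timp1, Cp, Mt1, Mt2, Cd44 and Bcl3 were higher after crush on all 4. Bcl3 differed by 0.94 to 2.81, Serpina3n by 0.56 to 1.90, Mt2 by 0.47 to 1.28, Cd44 by 0.25 to 0.80 and Mt1 by 0.13 to 0.54. The highest of each of these ranges came from slide 2, which held Cre-positive crushed replicate 5. In Cre-negative retinas 3 slides allowed it, and the same 8 genes were higher on all 3, with Bcl3 at 1.11 to 1.70, Mt2 at 0.57 to 1.17, Cd44 at 0.53 to 0.72 and Mt1 at 0.39 to 0.48. A2m was higher on 3 of 4 slides in Cre-positive and on 2 of 3 in Cre-negative retinas. These differences use the same arrays as the comparisons above. The share of all genes higher on every such slide is not given here, so the counts have no background to be read against.

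**Figure D4:**
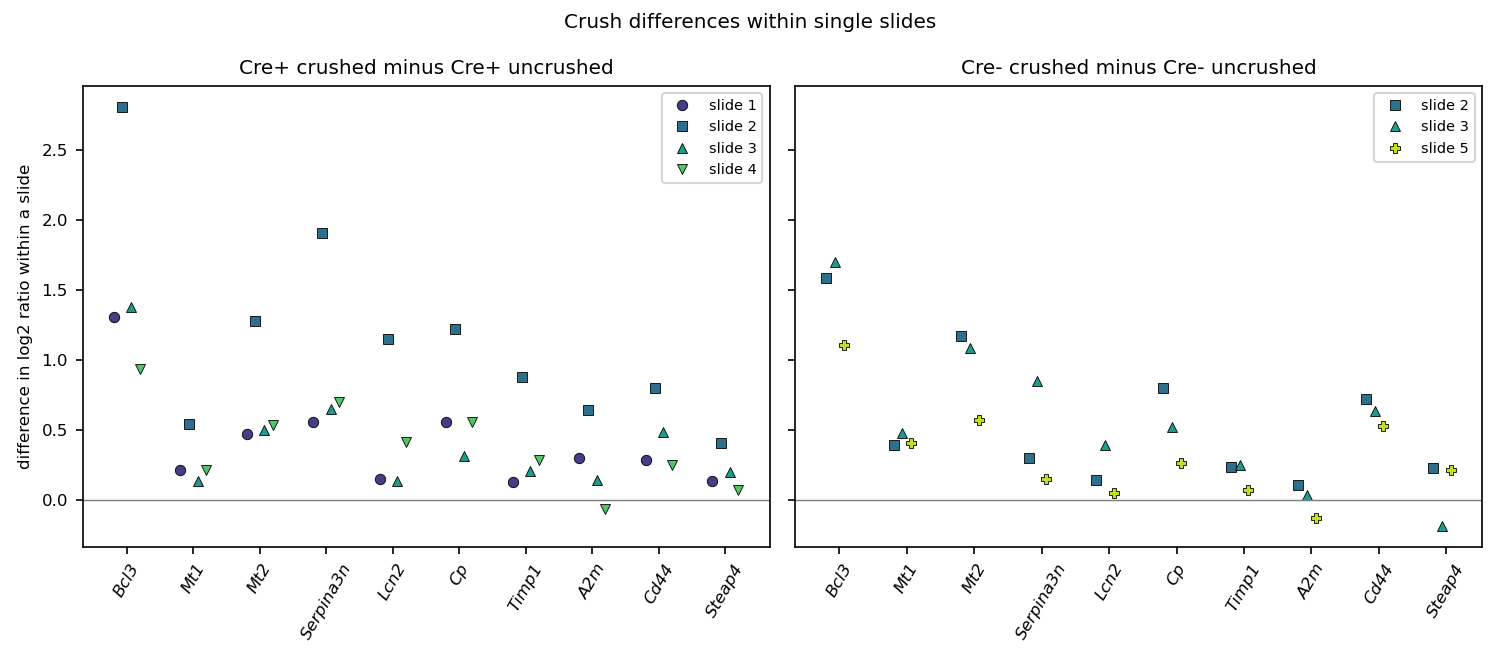
Crushed minus uncrushed log2 ratio within single slides (vertical axis) for the 10 genes (horizontal axis) in Cre-positive (left) and Cre-negative (right) retinas, each symbol 1 slide. Slide 2, with Cre-positive crushed replicate 5, gives the highest Cre-positive difference for all 10 genes, at 2.81 for Bcl3.

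The genes whose array values were most like the mean of the 9, by mean absolute difference of centred values over 17 arrays, were Tnfrsf1a (0.066), Socs3 (0.071), P2ry6 (0.072), Spsb2 (0.081) and Cd72 (0.083), where the median gene differed by 0.29. Tnfrsf1a encodes a receptor of tumor necrosis factor, Socs3 an inhibitor of cytokine signalling through STAT3, P2ry6 a receptor of uridine nucleotides and Cd72 a lymphocyte surface protein. As these genes were chosen for following the mean of the 9 over the same arrays, their crush changes are given as a description with no test. The log2 change was 0.46 in Cre-positive and 0.55 in Cre-negative retinas for Tnfrsf1a, and 0.47 in Cre-positive and 0.38 in Cre-negative retinas for Socs3. P2ry6 had 0.60 in Cre-positive and 0.54 in Cre-negative, Spsb2 0.59 in Cre-positive and 0.56 in Cre-negative, and Cd72 0.55 in Cre-positive and 0.37 in Cre-negative retinas.

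Around these genes, the list of the interleukin-6 family, STAT3 and NF-kappa-B had 26 tested genes, of which 4 rose in Cre-positive and 5 in Cre-negative retinas, with 0 lower. For this list and those in the next paragraphs, 0.682% of all genes were called higher in Cre-positive and 1.34% in Cre-negative retinas. Called lower were 0.0867% in Cre-positive and 0.808% in Cre-negative retinas. The cytokine receptor Osmr rose by 0.83 (limma adjusted p = 0.000304) in Cre-positive and by 1.21 (limma adjusted p = 4.3e-06) in Cre-negative retinas. The shared receptor subunit Il6st rose by 0.28 in Cre-positive (limma adjusted p = 0.0233) and by 0.54 in Cre-negative retinas (limma adjusted p = 8.71e-05). Stat3 rose by 0.67 in Cre-positive (limma adjusted p = 0.0204) and by 0.98 in Cre-negative retinas (limma adjusted p = 0.00136). Cebpd, a transcription factor of the acute-phase response, rose by 2.05 in Cre-positive (limma adjusted p = 0.00195) and by 2.10 in Cre-negative retinas (limma adjusted p = 0.00269). The related Cebpb also rose in Cre-negative retinas, by 1.16 (limma adjusted p = 0.00279). It was not among the 4 genes of the list called in Cre-positive retinas, which alone does not show a difference between the genotypes. The median change of the list was 0.13 in Cre-positive and in Cre-negative retinas, and the interaction called 0 of its genes. Without Cre-positive crushed replicate 5, Stat3 did not pass in Cre-positive retinas (0.59, limma adjusted p = 0.0634).

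Other acute-phase genes mostly stayed below the threshold. Of 17 tested, 1 rose in Cre-positive retinas, the complement inhibitor Serping1 (0.64, limma adjusted p = 0.027), and 0 in Cre-negative ones, with list medians of 0.067 in Cre-positive and 0.086 in Cre-negative retinas. Serping1 did not pass without Cre-positive crushed replicate 5 (0.58, limma adjusted p = 0.0854). Of 15 other protease inhibitors and matrix proteases, 0 passed in Cre-positive retinas. In Cre-negative ones Serpinf1, which encodes pigment epithelium-derived factor, rose by 0.28 (limma adjusted p = 0.0127) and the matrix protease Mmp9 fell by 0.54 (limma adjusted p = 0.000684). In crushed retinas Mmp9 was higher in Cre-positive than in Cre-negative ones by 0.35 (limma adjusted p = 0.0317).

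Of 23 other genes of metal handling, the zinc importer Slc39a8 rose by 0.42 (limma adjusted p = 0.0349) and the transferrin receptor Tfrc fell by 0.36 (limma adjusted p = 0.0456) in Cre-positive retinas, and neither passed without replicate 5 (0.39 and -0.34, limma adjusted p = 0.107 and 0.141). In Cre-negative retinas the heme oxygenase Hmox1 rose by 0.43 (limma adjusted p = 0.000146). In crushed retinas the Cre-positive minus Cre-negative difference of Hmox1 was -0.23 (limma adjusted p = 0.0467), while the interaction called 0 of the 23. Of 13 CD44 ligands and linkers, Msn, the linker moesin, rose by 0.73 (limma adjusted p = 0.00668) in Cre-positive and by 0.77 (limma adjusted p = 0.00732) in Cre-negative retinas. Tnfaip6, a hyaluronan-binding protein, rose by 0.47 in Cre-positive (limma adjusted p = 0.027) and by 0.68 in Cre-negative retinas (limma adjusted p = 0.00224), and its Cre-positive call ended without replicate 5 (0.41, limma adjusted p = 0.0829).

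Of 22 other genes of reactive glia, 7 rose in Cre-positive and 9 in Cre-negative retinas, with 0 lower and list medians of 0.23 in Cre-positive and 0.28 in Cre-negative retinas. Cxcl10, an interferon-induced chemokine, rose by 2.42 (limma adjusted p = 0.000304) in Cre-positive and by 2.34 (limma adjusted p = 0.000549) in Cre-negative retinas, and the complement component C4b rose by 1.36 in Cre-positive (limma adjusted p = 0.000185) and by 1.37 in Cre-negative retinas (limma adjusted p = 0.000196). Edn2, which encodes an endothelin, rose by 1.39 in Cre-positive (limma adjusted p = 0.000242) and by 1.87 in Cre-negative retinas (limma adjusted p = 8.53e-06). The interaction called 2 of the 22 as lower, S100a10 (-0.74, limma adjusted p = 0.026) and the heat shock protein Hspb1 (-0.58, limma adjusted p = 0.0464). Of all genes it called 0.284% as lower. Hspb1 did not pass without Cre-positive crushed replicate 5 (-0.59, limma adjusted p = 0.065), while S100a10 did (-0.80, limma adjusted p = 0.0118).

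Promoter windows were found for 9 of the 10 genes, A2m being named only. The metal response element matched in 4 of the 9, Mt1, Mt2, Cd44 (2 matches) and Timp1 (1 match), and 25.7% of all promoters held at least 1 and 7.11% at least 2. A STAT site, TTCNNNGAA, was found in Steap4, against 8.3% of all promoters, and an AP-1 site, TGANTCA, in Cp and Mt2, against 7.81%. The NF-kappa-B consensus matched in Bcl3 and in Steap4, which held 2 matches (1.22% of all promoters held at least 2). All motifs were searched on both strands, and no match in a window says only that these letters are not there.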

How the data were processed

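For 18 arrays, the deposited scanner output gives spot and background median intensity in both dyes, written by Agilent Feature Extraction 10.7.3.1 per the file headers, and a deposited log10 ratio and processed signals. The authors' value table was made with limma per the submitters' processing notes. Its scale is unstated and was taken as log2 Cy5 over Cy3 because the deposited log2 values correlated at r of 0.999 to 1 with the ratios computed here. Its background correction, normalization and limma version were not given in the sources used here.

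Intensities were corrected in limma 3.58.1 (R 4.3.3) by normexp with an offset of 50, then loess within arrays. Median signals replaced the planned mean signals, which were not used here. Spots of a probe were averaged, flagged spots dropped (49 missing values), and the brightest probe kept per gene if well above background on at least 3 of 17 arrays. A mean for each of 4 groups was fitted (13 residual degrees of freedom) with empirical Bayes and Benjamini-Hochberg adjustment over 25371 genes per contrast, two-sided, at 0.05. The fit was tested on simulated data. Promoters were read and figures drawn in Python 3.11.15.

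The members and the gene lists were chosen with earlier results of these data known. Named genes were all 10 members, up to 4 called genes with the smallest adjusted p per context list and contrast, the 5 genes most like the members' mean, Map3k12 and Esr1. Cebpb and the microglia, astrocyte, Müller glia, ganglion cell, lens, cornea and neutrophil genes were named after their values were seen. Alternatives covered background correction, scaling, filters, probe choice, slide, array weights, samples in the fit, the array with disagreeing labels and each array left out.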

Additional observations from a re-analysis of the deposited data

Results flagged for a closer look

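Cd44 in Cre-positive crushed replicate 5 lay far from the other arrays of its group, at -0.706 against -1.11 for the nearest of the other 4, a gap of 0.779 of the group's whole range. Of 30 sets of arrays examined in this way 1 was set apart, and chance sets apart about 1 in 20. The same array was the highest of its group for all 9 tested genes, and the Cre-positive change of Cd44 without it was 0.33 (limma adjusted p = 0.00372).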

How the results depend on the processing

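Over 45 member results and up to 36 alternatives each, 1521 of 1601 values kept their direction and side of the threshold, 49 kept the direction and lost the call, 11 gained one and 20 changed sign, none of these a called change. No paired analysis was possible because the labels carry no replicate numbers. In Cre-positive retinas 5 members passed, against 3 with Agilent processed signals, 3 with the Cy5 processed signal alone, 0 when only the 2 groups were fitted and 0 with the disagreeing array added to Cre-negative uncrushed. Leaving out 1 array gave 2 to 5, with 3 without Cre-positive uncrushed replicate 1 and 2 without Cre-positive uncrushed replicate 2. In Cre-negative retinas 4 passed, against 0 with the disagreeing array among the uncrushed, and 3 to 5 with 1 array left out. With the disagreeing array among the Cre-negative crushed, 5 members passed in Cre-positive and 4 in Cre-negative retinas, and of all genes 190 and 741. Of all genes, 195 passed in Cre-positive retinas, against 52 with only the 2 groups, 10 with the disagreeing array added to Cre-negative uncrushed, 120 without both arrays that stand apart (chosen after seeing the data) and 110 to 234 with 1 array left out. In Cre-negative retinas 546 passed, against 1197 with array weights, 73 with the disagreeing array among the uncrushed and 327 to 679 with 1 array left out. The interaction called 106, against 69 with processed signals, 164 with weights, 0 with the disagreeing array uncrushed and 81 to 121 with 1 array left out. The Cre effect called 293 in crushed retinas, against 145 with slide as a block, 545 with weights, 116 with the disagreeing array uncrushed and 167 to 326 with 1 array left out. In uncrushed retinas it called 3, against 1 at an offset of 16, 1 with slide as a block, 1 with only the 2 groups, 1 without both arrays, 0 with probes above background on all 17 arrays and 1 to 3 with 1 array left out. Uncalled signs changed for the Bcl3 interaction (-0.337 to 0.197 with 1 array left out, -0.0244 with processed signals, -0.219 with weights, -0.175 with the disagreeing array crushed, -0.333 without both arrays, and -0.337, -0.0209 and -0.13 without Cre-positive crushed replicate 5, Cre-positive uncrushed replicate 2 and Cre-negative crushed replicate 2). They changed for the Cp interaction (-0.0671 to 0.172 with 1 array left out, -0.0616 without Cre-positive crushed replicate 5 and without both arrays, -0.0671 without Cre-negative crushed replicate 2) and for A2m with crush in Cre-negative retinas (-0.0382 without Cre-negative crushed replicate 3, up to 0.0893 without Cre-negative crushed replicate 2). For Cre in uncrushed retinas with the disagreeing array added they were -0.0481 for Serpina3n, -0.0389 for Timp1 and for the members' median, -0.0798 for Mt2, -0.0152 for A2m, -0.0403 for Cd44 and -0.0523 for Bcl3. A2m there also gave -0.00601 with slide as a block, -0.00708 without Cre-positive uncrushed replicate 5 and -0.0123 without Cre-negative uncrushed replicate 1, within -0.0123 to 0.0438 with 1 array left out. The causes were not tested. Signal over background limits A2m, Serpina3n and Steap4.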

Other observations

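The array from a Cre-negative mouse with disagreeing labels on crush belongs to no group, and its values are given without a comparison. It measured -1.34 for Bcl3, -1.08 for Mt2, -0.80 for Mt1, 1.14 for Serpina3n and -0.98 for Lcn2. Cp was at -1.75, Timp1 at -2.96, A2m at 0.31 and the brightest Cd44 probe at -0.95, while Steap4, at 0.084, was not well above background. Its Gfap value was 1.65 and its Cryaa value 2.71. Its mean centred level was -0.74 for 8 ganglion cell markers, 0.33 for 9 microglia markers and 0.90 for 8 lens markers, and it lay at array position 4 of its slide.

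Markers of ganglion cells, the neurons whose axons were crushed, were measured in the same retinas. Their mean centred level spanned -0.016 to 0.11 in Cre-positive retinas after crush, against 0.19 to 0.32 without it, and -0.72 to -0.54 in Cre-negative retinas after crush, against 0.069 to 0.17 without it. In Cre-negative retinas 6 of 8 fell after crush, where 0.808% of all genes were called lower. Among the 6 were the transcription factors Isl2 (-1.69, limma adjusted p = 4.93e-10) and Pou4f2 (-1.77, limma adjusted p = 4.29e-07). Of the others, Sncg had -0.19 (limma adjusted p = 0.0666) and Slc17a6 0.16 (limma adjusted p = 0.74). In Cre-positive retinas 1 of 8 fell, Nefl (-0.36, limma adjusted p = 0.00235), a neurofilament subunit, where 0.0867% of all genes were called lower. The interaction called 3 of the 8, Isl2 (1.44, limma adjusted p = 6.5e-07), Pou4f2 (1.40, limma adjusted p = 0.000661) and Pou4f1 (0.91, limma adjusted p = 0.00298). For Slc17a6 its estimate was -0.32 (limma adjusted p = 0.712). The interaction called 0 of the 9 tested acute-phase and metallothionein genes, where 0.418% of all genes were called. That count does not show that the 9 genes responded alike in both genotypes. The widest interaction interval among them, that of Bcl3, ran from -0.91 to 1.01.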
